A study of Mus musculus with 2 samples.

Results

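Gata3 encodes GATA3, the zinc finger transcription factor that directs helper T cells to the TH2 fate. PPARγ peaks of mouse TH2 cells were examined along this gene and the gene-free sequence downstream of it. The peaks were selected by position, as those whose nearest start site of a protein-coding gene (TSS) is that of Gata3 at any distance, and 9 of the 2537 peaks in the list met the rule. Because measured peaks chose the members, their number and distances are a description and carry no test. Naive CD4 T cells of C57BL/6J mice were driven to TH2 in culture, received a retrovirus for PPARγ carrying a TY1 tag on days 1 and 2, and were taken for chromatin on day 4. The ChIP library (1, antibody against the tag) and the input library (1, no antibody) both came from such cells, so the receptor mapped here is the introduced one, and there is no replicate (per the series text, 1 of several experiments was used). No expression was measured, so the TH2 label could not be checked against marker genes.

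GATA3 is needed at several steps of T cell development and again in mature TH2 cells, where it acts at the cytokine genes Il4, Il5 and Il13, and in innate lymphoid cells. Its gene is controlled by enhancers that lie far from it. Among those known in the mouse are Tce1, a T and NK cell enhancer far 3′ of the gene, and a region further downstream that innate lymphoid cells of group 2 need and TH2 cells need little. PPARγ is a nuclear receptor that binds DNA with RXR at DR1 elements, in which AGGTCA occurs in direct repeat with a spacer of 1 base.

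All 9 peaks lay on the 3′ side of the Gata3 TSS (chromosome 2, minus strand, TSS at 9878600, mm10), and each was 173 bp long. They are called P1 to P9 here in order of distance. P1 lay 11.0 kb from the TSS, in intron 4 of the transcript of 6 exons, and had its centre 1208 bp from the exon before it and 4333 bp from the exon after it. The other 8 lay beyond the gene. P2 and P3 were 288.6 and 300.5 kb from the TSS, P4 and P5 483.3 and 527.0 kb, P6 and P7 583.9 and 610.7 kb, P8 737.0 kb and P9 913.4 kb. Distances are to the peak centre. No peak lay on the 5′ side before a peak 158 kb away in the neighbouring gene Taf3, 11.5 kb from that gene's own TSS. The side of the members was largely set by the rule. The TSS of 4930412O13Rik lies 2652 bp upstream of that of Gata3, and peaks farther upstream are nearer to other genes.

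Sequences are shown for the nearest peak, P3 of the closest pair, the farthest peak, the peaks with an AP-1 site and the peak with a DR1 at its edge, since these carry the positions and elements described next. They are from the GRCm38 reference (mm10), plus strand. The AP-1 peaks and the DR1 at the edge were picked after their matches were seen. Capitals mark the AGGTCA half-site, the AP-1 site TGANTCA and the GATA site (GATAA or GATAG after A or T), and in P4 the DR1 match alone, where the stretch starts 10 bp before the peak.
P1 (chr2:9867467-9867639): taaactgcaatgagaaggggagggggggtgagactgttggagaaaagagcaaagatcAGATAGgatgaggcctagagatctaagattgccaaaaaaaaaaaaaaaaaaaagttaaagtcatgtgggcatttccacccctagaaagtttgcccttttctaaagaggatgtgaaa
P3 (chr2:9578017-9578189): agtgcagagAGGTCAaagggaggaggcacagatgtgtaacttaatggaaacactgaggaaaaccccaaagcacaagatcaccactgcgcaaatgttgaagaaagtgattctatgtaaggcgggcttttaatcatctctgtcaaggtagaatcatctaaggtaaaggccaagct
P4 (chr2:9395204-9395386): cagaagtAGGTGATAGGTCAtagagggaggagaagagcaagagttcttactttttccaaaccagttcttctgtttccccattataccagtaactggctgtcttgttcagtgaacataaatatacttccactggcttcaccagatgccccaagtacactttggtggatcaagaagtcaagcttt
P5 (chr2:9351479-9351651): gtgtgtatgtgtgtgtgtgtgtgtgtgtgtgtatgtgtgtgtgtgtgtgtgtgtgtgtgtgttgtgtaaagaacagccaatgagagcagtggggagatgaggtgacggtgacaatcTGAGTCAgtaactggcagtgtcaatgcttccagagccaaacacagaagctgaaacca
P8 (chr2:9141492-9141664): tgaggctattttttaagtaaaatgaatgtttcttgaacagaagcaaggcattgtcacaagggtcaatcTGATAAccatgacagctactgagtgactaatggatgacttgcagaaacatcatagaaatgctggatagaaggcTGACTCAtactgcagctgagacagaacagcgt
P9 (chr2:8965074-8965246): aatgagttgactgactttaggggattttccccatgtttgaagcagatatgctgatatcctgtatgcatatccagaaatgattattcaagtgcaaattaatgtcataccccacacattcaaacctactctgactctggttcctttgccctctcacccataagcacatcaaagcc

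The 8 distal peaks lay in a large desert. Between the end of Celf2, which encodes an RNA-binding splicing regulator, and the 3′ end of Gata3 there were 2.35 Mb without another protein-coding gene. All 8 peaks in this interval were on the Gata3 side of its midpoint and 0 on the Celf2 side, over a span of 625 kb. The rule kept members on the Gata3 side of position 8637300, close to that midpoint, so their side was set by it. What was observed is that the Celf2 side held no peak. The 267 kb next to Gata3 and the 1.46 Mb next to Celf2 held none. P9, the outermost member, was 1569 kb from the nearest TSS of Celf2 and 328 kb inside the point at which Celf2 becomes the nearer gene. The next peak in that direction, at chr2:6695558-6695730, was 2.27 Mb away, inside Celf2. The desert held 3.41 peaks per Mb, chromosome 2 as a whole 1.09 and the genome 0.931.

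**Figure D1:**
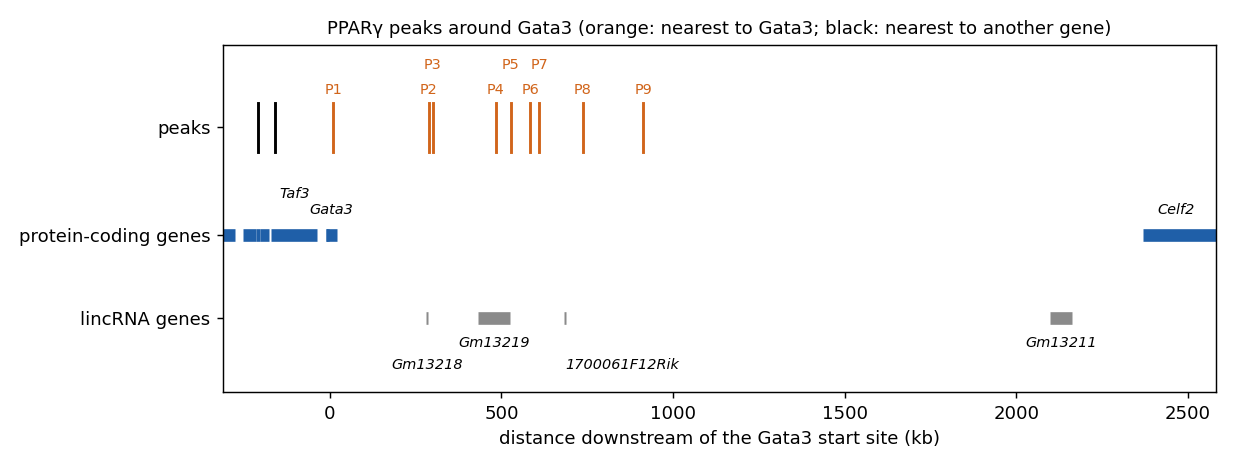
Position of the PPARγ peaks (top row), protein-coding genes (blue) and lincRNA genes (grey), by distance downstream of the Gata3 TSS in kb, negative values being upstream. The 9 orange peaks are those nearest to Gata3 and lie between 11.0 and 913.4 kb downstream. No peak lies in the 1.46 Mb next to Celf2.

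The spacing of the peaks was uneven. From P9 towards the gene, adjacent centres were 176.4, 126.3, 26.8, 56.8, 43.7, 182.8, 11.9 and 277.5 kb apart. P4 to P7 thus formed a group with gaps under 60 kb, P2 and P3 a close pair, and P1, P8 and P9 stood alone. The median gap was 91.5 kb over these 8 gaps and 304 kb over the 2516 gaps between adjacent peaks of the whole list. Of those 2516 gaps, 9.62% were as short as that of the close pair or shorter. Each of the 8 gaps was below the median of the list, and the members were chosen for lying at 1 gene.

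**Figure D2:**
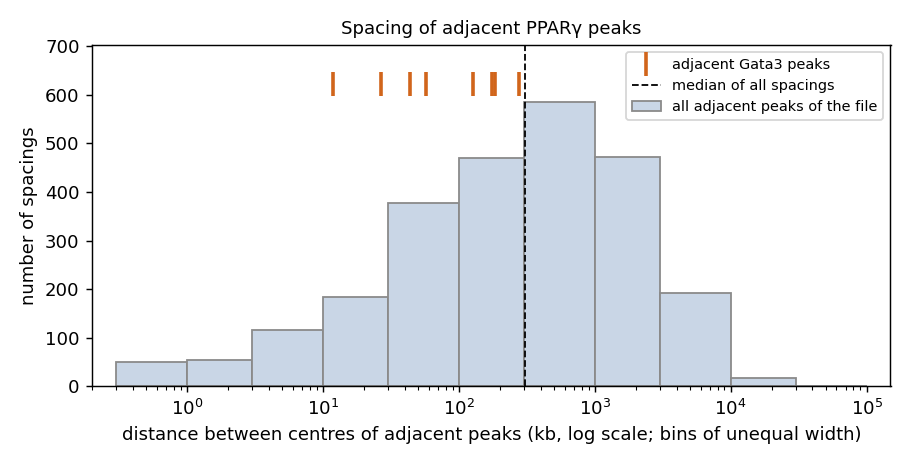
Histogram of the distances between adjacent peak centres over the whole list (bars, log axis in kb, bins of unequal width) with the 8 gaps between Gata3 peaks (orange marks) and the median of the list (dashed line, 304 kb). The orange marks run from 11.9 to 277.5 kb, all left of the dashed line.

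The desert is not free of noncoding genes, and several peaks lay in them or within 5 kb of them. How often other sequence of the desert lies as near to such a gene was not computed, so this is a description. P4 was inside Gm13219, a lincRNA gene of 95246 bp in GENCODE, and the centre of P5 was 866 bp before its first base. P2 was 1.21 kb past the 3′ end of the lincRNA gene Gm13218. P9 was inside Gm30957, a lncRNA gene that RefSeq lists and GENCODE does not. P3 and P7 lay 1.76 and 2.18 kb from the processed pseudogenes Gm13220 and Gm13221. P6 and P8 had no annotated gene within 5 kb. RNA was not measured, so whether these genes were transcribed was not tested.

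With regard to the known enhancers, only rough distances could be set side by side. P2 and P3 lay 267.1 and 279.0 kb past the 3′ end of the gene, roughly as far as Tce1 was described to lie. P8 lay 715.5 kb past that end and 737.0 kb from the TSS, roughly the distance given for the region that innate lymphoid cells need. The coordinates of these enhancers, and the points from which their distances were measured, were not in the sources used here. Overlap was therefore not tested, and a like distance does not show it. RefSeq's functional elements, as given in the annotation used here, listed none within this desert. Conservation between species was not analysed here.

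No Gata3 peak held a DR1 match within its 173 bp. With up to 2 mismatches in the 12 fixed bases, a DR1 was present in 0 of 9 Gata3 peaks (exact 95% binomial interval up to 33.6%), in 461 of 2537 peaks of the list (18.2%) and in 60 of the 413 peaks beyond 100 kb of a TSS (14.5%). Of 7165 windows of 173 bp that tile the rest of the sequence nearest to Gata3, 1.77% held one. At 9 peaks the interval takes in the share of the whole list, so a lack of DR1 was not detectable at this number. Intervals here cover counting error only, and peaks at 1 gene are not independent replicates.

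P4 came closest to a DR1. The sequence AGGTGATAGGTCA at chr2:9395211-9395223 matched the element with 1 mismatch, but its first 3 bases fell outside the peak and it lay 83 bp from the centre. In windows of 400 bp around the centres it made 1 of 9, against 24.9% of all peaks and 4.39% of 3095 windows of the same length nearest to Gata3. With 3 mismatches allowed, 5 of 9 peaks had a match (44.9% of all peaks, 14.1% of the windows). P2 had 2 such matches, 50 and 57 bp from its centre. The match in P3, AGGTCAAAGGGAG, kept the upstream AGGTCA whole and lay 71 bp from the centre. The match in P7, AGGGTAAAGGTGA on the minus strand, was the most central at 9 bp, and those in P1 and P9 lay 35 and 63 bp out. The exact half-site AGGTCA occurred in P2, P3 and P4 (3 of 9, interval 7.49 to 70.1%), in 25.7% of all peaks and in 8.92% of the windows.

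Sites of other T cell factors were searched the same way on both strands. AP-1, the FOS and JUN site TGANTCA, was in P5 (TGAGTCA, 33 bp from the centre) and P8 (TGACTCA, 58 bp), or 2 of 9, against 20.7% of all peaks and 5.83% of the windows. The site of GATA factors themselves was in P1, P4 and P8, or 3 of 9, and in 33.9% of all peaks and 37.3% of the windows. Of the 3, the one in P8 was nearest to a centre, at 16 bp. In P4 the GATA site TGATAG shares bases with the DR1 match. The short NFAT core GGAAAA, bound by the calcium-activated NFAT factors, was in 6 of 9 peaks (interval 29.9 to 92.5%), namely P2, P3, P4, P6, P7 and P9, against 15.9% of all peaks and 19.2% of the windows. This count was the furthest from its background of the 15 elements, was singled out for that reason, and has no test.

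The STAT pattern, TTC and GAA with 3 or 4 bases between, was in P4, P6 and P7, or 3 of 9 (33.3%, interval 7.49 to 70.1%), against 15.3% of all peaks and 12.1% of the windows. In P6 and P7 it shares bases with the NFAT core. TCF-LEF sites (CTTTGA or CTTTGT) were in P3, P7 and P9 (34.1% of all peaks). ETS (GGAAGT, P4), E-box (CAGCTG or CACCTG, P8) and T-box (TCACAC, P6) sites were in 1 peak each, where all peaks had 12.9%, 17.3% and 13.4%. RUNX sites (TGTGGT), present in 16.2% of all peaks, were in 0 of 9 (interval up to 33.6%). The patterns for IRF (GAAA in repeat with 2 bases between), NF-κB (GGGAA then TTTCC, with 0 or 1 base between), SP-KLF (GGGCGG) and CTCF, each held by at most 3.67% of all peaks, were also in 0 of 9. A match is a string of letters and does not show that the factor was bound.

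**Figure D3:**
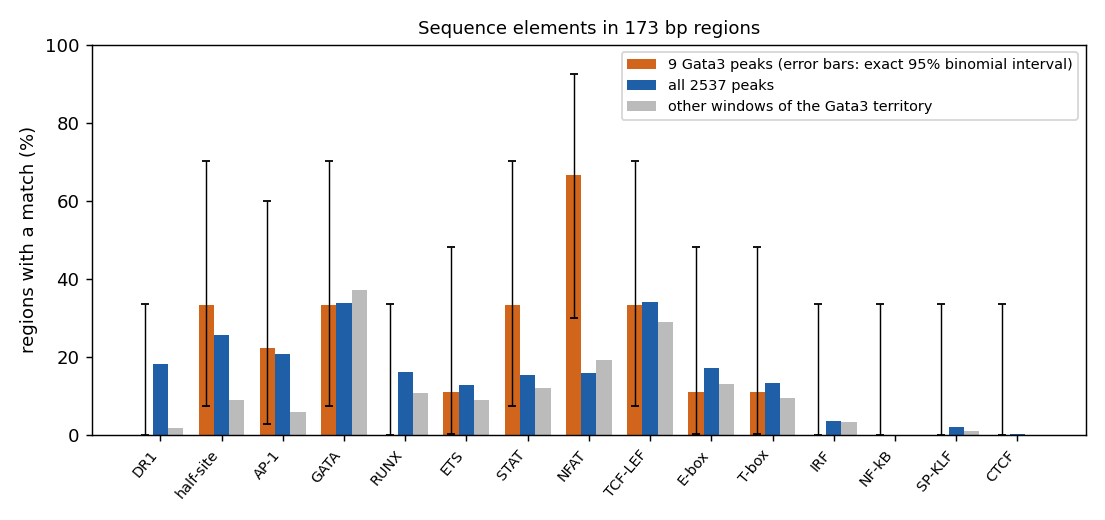
Share of 173 bp regions with each of the 15 elements (percent), in the 9 Gata3 peaks (orange, black bars for the exact 95% binomial interval), all 2537 peaks (blue) and the other 7165 windows nearest to Gata3 (grey). NFAT cores stand at 66.7% of the Gata3 peaks and 15.9% of all peaks. DR1 stands at 0 and 18.2%.

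Simple repeats marked 3 of the peaks. P5 began with a GT tract, whose longest perfect run was 29 bp, P2 held a run of 34 bp and P1 a run of 20 bp of A. A perfect run of a unit of 1 to 5 bases that reached 15 bp occurred in these 3 of 9 peaks, in 9.26% of all peaks and in 9.62% of the windows. The longest run in the other 6 was 8 to 10 bp. Repeat masking covered 45.7% of P2, 41.0% of P5 and 39.9% of P1, none of P7 and P9, and 12.7 to 13.3% of the other 4. The centres of P1 and P2 were masked (2 of 9, against 16.2% of all peaks and 31.5% of the windows). Alignments elsewhere in the reference genome were found for these same P2 and P5. The other 7 peaks gave no second alignment at an E-value of 1e-10. P2 gave 25, none longer than 60 bp and all within its bases 26 to 95. P5 gave 822031 within its bases 1 to 125, of which 21 were at least 100 bp long, the longest 129 bp, and 0 covered at least 80% of the peak. Lengths include gaps. Alignments that overlap one another were each counted, so 822031 is not a number of separate places in the genome. Of the P5 alignments, 170 were at 99% identity or more over at least 50 bp. Per the series text, tags were kept where they aligned to a single position, and how far the tracts affected the calls was not tested. In base composition the 9 peaks had a median GC of 40.5% (43.4% over all peaks, 39.9% over the windows) and held 0 to 2 CpG sites each.

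Among protein-coding genes, Gata3 was the third by number of peaks, after Myc (14) and Ets1 (11). This rank depends on the start sites used: with 1 TSS per gene, at its outermost 5′ end, Gata3 had 0 peaks and rank 1883, and within 100 kb it had 1 peak and rank 333. Genes with equal counts share a rank, so ranks 1883 and 333 are ties with many other genes. Of 21851 genes, 1877 (8.59%) had at least 1 peak nearest to their TSS, and 1438 of them had just 1. Of its 9 peaks, 8 were beyond 100 kb, where 291 genes (1.33%) had any. By peaks beyond 100 kb the order was Myc with 12, Gata3 with 8, Ets1, an ETS factor gene of lymphocytes, with 7, Tbl1xr1, a corepressor subunit gene, with 5 and Nrip1, a gene of a nuclear receptor corepressor, with 4, and 19 genes had 3. The likeness is in the number of such peaks, in 1 library. The distal peaks of Myc, the growth regulator, ran from 281 to 898 kb, a reach close to the 289 to 913 kb of Gata3. Of these Myc peaks, 10 of 12 were downstream of the gene. At Gata3 8 of 8 were, but the rule allowed no distal member upstream, where another gene's TSS lies 2652 bp away. The distal peaks of Ets1 ran from 204 to 365 kb and were all downstream, and those of Tbl1xr1 from 103 to 513 kb and were all upstream.

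The sequence nearest to Gata3 measured 1.24 Mb and held 7.24 peaks per Mb. Of the 349 genes with at least 1 Mb of such sequence, 283 had no peak. Myc led these genes with 9.69 peaks per Mb, followed by Gata3, then Maf, a TH2 factor gene (3.87), Sox5 (3.73) and Rora (3.65). DR1 matches were in 2 of the 14 peaks of Myc, 2 of the 11 of Ets1 and 0 of the 6 of Tbl1xr1. The 9 Gata3 peaks stood in rows 134 to 1186 of the file, thus within the first 1268 of its 2537 rows. The header does not state what orders the rows, and the deposited score is 1 in every row, so strength could not be compared between peaks. Peaks this far from a TSS were few: 42 peaks of the list were more than 500 kb away, 5 of them at Gata3, and 7 lay farther from a TSS than P9.

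**Figure D4:**
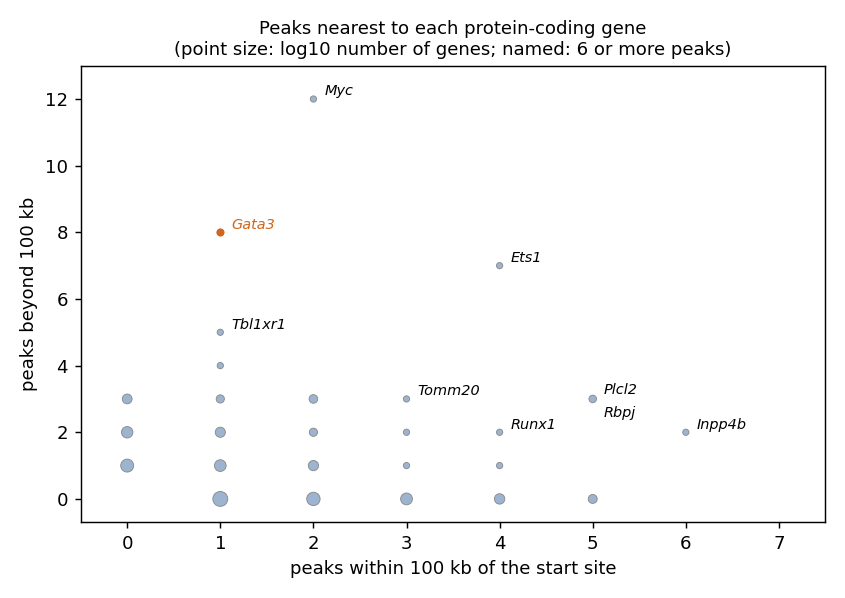
Number of peaks within 100 kb of the TSS (horizontal axis) and beyond 100 kb (vertical axis) for each protein-coding gene with a peak, the point size growing with the log10 number of genes at that spot. Gata3 (orange) has 1 near and 8 far peaks, and the named genes have 6 or more peaks.

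Of the 9 other protein-coding genes examined around Gata3, 4 had a peak, where 8.59% of all genes had one. The sequence nearest to each of the 9 ranged from 0.00339 Mb (4930412O13Rik) to 2.12 Mb (Celf2). Room for peaks was not matched to that of all genes, so this count is a description without a test. Taf3, Kin and Sfmbt2 upstream and Celf2 beyond the desert had 1 peak each, at 11.5, 6.84, 1.05 and 26.0 kb from their TSS. Atp5c1, Itih2 and Itih5 had none, nor had 4930412O13Rik and 9230102O04Rik, which overlap the 5′ part of Gata3. The 5 other genes of the GATA family, Gata1, Gata2, Gata4, Gata5 and Gata6, which act in blood, heart and gut, had 0 peaks. With 8.59% of all genes having one, a count of 0 among 5 genes says nothing about the family.

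Genes that act on Gata3 or with GATA3 were listed next to it. Of 20 regulators of Gata3 in T cells, 8 had a peak (8.59% of all genes had one). Ets1 had 11, the nearest 2.50 kb from its TSS. Rbpj, whose product carries the Notch signal to DNA, had 8, Runx1 6 and Rora 4, the nearest at 9.10, 16.2 and 45.6 kb. Il4ra, the IL-4 receptor gene at the head of the STAT6 route, Gfi1, Ezh2 and Lef1 had 1 each, at 13.8, 29.1, 50.2 and 55.7 kb, and the other 12 had 0. Stat6 and Notch1, named here for their role and after their values were seen, are among those 12. Of 15 partners and antagonists, 5 had a peak: Maf 4, Sox4 3, Ikzf1 2, Irf4 2 and the chromatin remodeller gene Chd4 1. The nearest were at 18.7, 21.8, 0.552, 24.2 and 2.50 kb. Of the genes with a peak in these lists, Ets1, Runx1, Rora, Gfi1, Lef1, Maf, Ikzf1 and Irf4 also count among the lineage factors below. Room for peaks around the listed genes was not matched to that of all genes, so the counts are descriptions without a test. Of 16 genes listed as GATA3 targets in type 2 immunity, 5 had 1 peak each: Ccr8 (0.752 kb), Cysltr1 (1.21 kb), Il2ra (1.33 kb), Rad50 (6.46 kb) and Il1rl1 (16.4 kb). Whether GATA3 acts on each of them, Rad50 included, was not tested. Il4, Il5 and Il13, named for their role and after their values were seen, had 0. Peaks beyond 100 kb were at 4 of the 20 regulators, 2 of the 15 partners and antagonists and 0 of these 16, against 1.33% of all genes. At that share a count of 0 among 16 genes says little.

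Distal peaks were found at other lineage factors too. Of 27 other transcription factor genes of lymphocytes, listed for their large surroundings, 18 had a peak and 11 had one beyond 100 kb, against 8.59% and 1.33% of all genes. A gene with more sequence around it has more room for a peak, and the list was picked for that, so the counts are given without a test. Ets1 had 7 distal peaks, Rora 3, and Runx1, Maf and Id2 2 each. Foxp1 and Satb1 tied with 3 peaks in all, of which 1 and 3 were distal. Bach2, a repressor gene of lymphocytes, had 5 peaks and 0 of them distal.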

How the data were processed

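One ChIP library and one input library of cultured mouse TH2 cells were compared by the authors, and the peak list of the former was used. The authors used Bowtie2 (build mm10) for alignment and HOMER for peaks, per the submitters' processing notes. Tool versions are not given in the sources used here. The library held, per the file headers, 10229438 tags, 54617 of them in peaks. Calling used a threshold of 8 tags (false discovery rate 0.001) and at least 4-fold density over the input and over the surrounding 10000 bp. The deposited score is 1 in every row and was not used to rank peaks. The authors' cut over input and local background can remove weak peaks.

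Coordinates count from 1. Each peak went to the closest start site among protein-coding transcripts in the GENCODE vM21 basic set, measured from its centre. Elements were searched on both strands in the peak (173 bp). Intervals are exact binomial (Clopper-Pearson) at 95%. The members and gene lists were chosen with earlier results of these data known. Named were the Gata3 peaks, annotated genes around them (noncoding ones within 5 kb of a peak), up to 8 genes a list, up to 8 genes by distal peaks and up to 5 by peaks per Mb, over territories of at least 1 Mb. The peak-to-gene assignment and DR1 search were tested on simulated data. The sequence of P2 is not reported here. Copies were sought with BLAST 2.17.0. Analyses used Python 3.11.15, numpy 2.4.6, pandas 2.3.3, scipy 1.17.1, pyfaidx 0.9.0.4 and matplotlib 3.10.9. Alternatives covered start sites, distance, mismatches, windows, masking and parts of the file.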

Additional observations from a re-analysis of the deposited data

How the results depend on the processing

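The number of Gata3 peaks rests on which start sites compete. With 1 TSS per protein-coding gene, at its outermost 5′ end, Gata3 kept 0 peaks and ranked 1883 among genes. All 9 then went to 4930412O13Rik, whose TSS is 2652 bp beyond that of the main Gata3 transcript. With every TSS of all annotated genes it also kept 0, since noncoding genes and pseudogenes lay nearer. Within 100 kb it had 1 peak and rank 333. The count was 9 between the neighbouring protein-coding genes, with all transcripts of the full annotation and, with 1 TSS per gene, without the pair of genes that overlap Gata3 (the last 2 settings chosen after seeing the data). By rows, the first 1268 gave rank 1 and the rest rank 1075, with 0 Gata3 peaks there. Ranks at 0 or 1 peak are ties with many other genes. A DR1 was in 0 of 9 peaks with 1 mismatch, 1 in 400 bp windows and 5 with 3 mismatches. GATA sites were in 7 of 9 windows of 400 bp (59.3% of all peaks, 65.8% of local windows) and AP-1 in 4 (34.3% and 13.1%). By mask over more than 50% of the peak, 0 peaks were repeats, against 2 by centre. Without the peak in the gene the median spacing was 56.8 kb. No paired analysis was possible because there is 1 ChIP library. With 1 library, no peak has a replicate, and 8 tags bound what could be called.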

Other observations

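In windows of 400 bp around the centres, the STAT pattern was present at 8 of the 9 Gata3 peaks, all but P5, against 29.0% of all peaks and 26.2% of 3095 windows of the same length nearest to Gata3. Of the 9 matches, 5 had 3 bases between TTC and GAA and 4 had 4 bases, the latter at P1, P7, P8 and P9. Over all peaks the shares of these forms were 16.7% and 14.9%. The matches were not central: the nearest lay 3 bp (P6) and 12 bp (P4) from a centre, and 6 of the 9, at 92 to 165 bp, were outside the peak. The element was singled out after its count was seen among 15, so the count is a description and was not tested.

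NFAT cores were at 8 of 9 in the same windows (33.8% of all peaks, 39.0% of the windows). At P1, P6, P7 and P8 a core shares bases with the STAT match, so the STAT and NFAT counts are not independent. AP-1 sites were at P4, P5, P6 and P8 (4 of 9, against 34.3% of all peaks and 13.1% of the windows). The half-site was at P2, P3 and P4 (3 of 9, against 40.1% and 19.6%).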
